A study of Homo sapiens with 32 samples.

Results

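The human HOX gene clusters carry miRNA hairpins between and inside their homeobox genes, and 5 rows of the count table come from them: mir-10a, mir-10b, mir-196a, mir-196b and mir-615. They were picked by name, as rows for miRNAs located in HOX clusters, and are 5 of the 1513 miRNA rows. The rule uses no measured value, but it was written with earlier results of these data known. The cells were 293T, an established kidney line of human embryonic origin with the SV40 T antigen, and their small RNA was sequenced. There were 4 wild-type clones (52, 55, 57 and 67) and 4 clones with the genotype DGCR8 delta103-126Q (30, 34, 42 and 43), in which prime editing had removed the reported ERH contact site of DGCR8. Every clone received each of 4 vectors in separate transient transfections, 2 with a non-targeting control shRNA and 2 with an shRNA against ERH, which gave 32 libraries. All cells went through puromycin selection and, on day 5, a sort by the fluorescent marker of the vector, so the controls share these treatments. Each clone is 1 line, so that whatever else differs between clones is part of their spread. Neither the edit nor ERH mRNA is measured by a miRNA table, so the genotype and knockdown labels were not checked here.

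HOX genes set the identity of body segments, and the miRNAs embedded among them are transcribed in the same stretches of chromatin. The miR-10 and miR-196 families are known for repressing HOX messages themselves, with HOXB8 as the classic miR-196 target. A primary miRNA transcript is cut by the Microprocessor, made of the nuclease DROSHA and its RNA-binding partner DGCR8, and ERH is a small nuclear protein that binds DGCR8 and is reported to help hairpins that are poor substrates when they stand next to another hairpin. The question asked of these rows is how their levels respond to loss of the ERH contact site, to ERH knockdown, and to both.

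The mature sequences show how the rows are related. They are written 5′ to 3′ with the seed, bases 2 to 8, in capitals, and were taken from RefSeq (GRCh38.p14).
miR-10a-5p: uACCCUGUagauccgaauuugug
miR-10a-3p: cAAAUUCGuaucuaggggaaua
miR-10b-3p: aCAGAUUCgauucuaggggaau
miR-196a-5p: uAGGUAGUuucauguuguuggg
miR-196b-5p: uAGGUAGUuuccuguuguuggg
miR-615-3p: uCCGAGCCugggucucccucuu
miR-615-5p: gGGGGUCCccggugcucggauc
miR-100-5p: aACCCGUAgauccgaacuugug
let-7a-5p: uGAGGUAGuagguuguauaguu
The first group is the miR-10 family, to which miR-10b-5p also belongs, and the second the miR-196 family, whose 5p products share the seed AGGUAGU. miR-196a-5p and miR-196b-5p differ by the single substitution A12C, counted from the 5′ end of miR-196a-5p. Reads of these near-identical products can be told apart only where they cover that base, so the division of counts between the mir-196a and mir-196b rows is uncertain, and so is that between mir-10a and mir-10b. The last 2 sequences are relatives outside the HOX clusters. miR-100-5p shares an unbroken run of 11 bases with miR-10a-5p but has another seed, and the let-7a-5p seed holds 6 bases of the miR-196 seed (AGGUAG), shifted by 1 position. The seeds of miR-615 are shared with none of the others shown.

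The hairpins lie on 4 chromosomes (positions from GENCODE release 29, GRCh38; the build behind the counts is not given in the sources used here). MIR10A lies at chromosome 17, 48579838 to 48579947, on the minus strand of the HOXB cluster, in an intron of HOXB3 and over an untranslated exon annotated for HOXB4. MIR10B lies at chromosome 2, 176150303 to 176150412, on the plus strand in an intron of HOXD3, between HOXD8 and HOXD4. By its name the mir-196a row covers 2 loci, MIR196A1 at chromosome 17, 48632490 to 48632559, in an intron of HOXB7, and MIR196A2 at chromosome 12, 53991738 to 53991847, in an intron of HOXC6. MIR196B lies at chromosome 7, 27169480 to 27169563, over an exon of HOXA9 and, on the other strand, an exon of HOXA10-AS. MIR615 lies at chromosome 12, 54033950 to 54034045, in introns of HOXC4 and HOXC5. None of the 5 rows had another expressed hairpin (mean of at least 10 counts) within 10 kb on its strand. The nearest were those of mir-10a and MIR196A1, 52543 bases apart, and those of MIR196A2 and mir-615, 42103 bases apart. Of the other rows located in a HOX cluster, mir-7704 had 5 counts in 4 libraries and mir-3185 had 0 counts. A count of 0 in the smallest library allows a level of up to 2.27 CPM (counts relative to the miRNA total of the library), and neither row was tested.

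The hairpins themselves, which are what the Microprocessor cuts, differed in base composition, length and predicted folding. One intronic hairpin of each family is shown, again from RefSeq and 5′ to 3′.
MIR10B hairpin: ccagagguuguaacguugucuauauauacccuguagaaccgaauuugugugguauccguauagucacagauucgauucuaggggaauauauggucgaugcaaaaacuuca
MIR196A2 hairpin: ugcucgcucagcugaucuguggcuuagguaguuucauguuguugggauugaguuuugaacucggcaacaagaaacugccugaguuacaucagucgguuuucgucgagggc
MIR615 hairpin: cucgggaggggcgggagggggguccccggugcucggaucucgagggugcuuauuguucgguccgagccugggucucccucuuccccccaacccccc
The MIR615 hairpin had a GC content of 70.8%, the rank 15 from the top among 415 hairpins of expressed rows, whose median was 48.6%. The other 5 were below that median, MIR10A at 39.1%, MIR10B at 40.0% and MIR196A1 at 42.9%, and MIR196B and MIR196A2 just below it at 47.6% and 48.2%. Predicted folding energies (RNAfold) ran from -24.8 kcal/mol for the 70-base MIR196A1 to -58.2 for the 96-base MIR615, around a median of -39.3. The MIR10A hairpin was weak for its length of 110 bases, at -34.0, with 38.2% of its bases unpaired against a median of 26.6%.

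Libraries held 1318923 to 6222790 miRNA counts, with a median of 2299476.5, and 9139 to 33090 counts of the 4 spike-in RNAs. The HOX-embedded rows together took 3.83% to 7.75% of the miRNA counts of a library, with a median of 5.67%. The row mir-10a alone took a median of 3.06% and ranked 8 of all rows by mean count, with 31199 to 229365 counts per library. The rows mir-196b, mir-196a and mir-10b ranked 24, 28 and 30. They had at least 8734 counts in every library. The row mir-615 ranked 105 and had 538 to 3920 counts. At these depths counting error is small beside the spread between clones.

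Levels are CPM from the 2 libraries of an arm, summed for each clone and scaled by the trimmed mean of M values (TMM). The mature products printed above are 22 or 23 bases long, so no scaling by length was applied. Under control shRNAs in wild-type clones mir-10a stood at 44417 ± 16786 CPM (SD, n = 4) and mir-10b at 11937 ± 4293 CPM (SD, n = 4). The rows mir-196a and mir-196b stood at 8973 ± 1276 and 8915 ± 1610 CPM (SD, n = 4). The row mir-615 stood at 710 ± 323 CPM (SD, n = 4). In all 16 sums mir-10a was the highest of the 5 and mir-615 the lowest. The 3 rows between them overlapped in their ranges under control shRNAs in both genotypes. Within a clone their order also varied: mir-10b was above mir-196b in 4 of 4 wild-type clones under control shRNAs but in 1 of 4 deletion clones. In deletion clones mir-196b was above mir-196a in 4 of 4 under both arms, and in wild-type clones in 2 of 4 under control shRNAs.

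Under ERH knockdown both miR-10 rows fell on the TMM scale, while the miR-196 rows and mir-615 had values near 0 that did not pass the test. Of the 5 rows, 2 were called lower (mir-10a and mir-10b) and 0 higher, at an adjusted p under 0.05. Among the 667 rows tested, 36.6% were called, 16.5% lower and 20.1% higher. The call rested on scaling: counts scaled to the spike-ins or to the total miRNA count gave no call for either miR-10 row, as described with the plot of scalings.

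The row mir-10a, whose product is the most abundant of the HOX-embedded miRNAs here, was measured in each clone under both arms. In wild-type clones 52, 55, 57 and 67 it stood at 30619, 29692, 62636 and 54719 CPM under control shRNAs. Under ERH shRNAs the same clones stood at 26367, 24363, 40071 and 35205 CPM. Clones 57 and 67 were high under both arms and had the largest changes, -36.0% and -35.7%, against -13.9% and -17.9% in clones 52 and 55. In deletion clones 30, 34, 42 and 43 the row stood at 35920, 17512, 32287 and 32698 CPM under control shRNAs. Under ERH shRNAs these were at 32077, 12855, 23861 and 30935 CPM. Clone 34 was the lowest under both arms. On the TMM scale the level was lower under ERH shRNAs in 8 of 8 clones, a direction shared by 9.6% of the 667 rows. The arms nevertheless overlapped when clones were not paired. As a share of all miRNA counts the row rose in clones 52, 55, 30 and 43, from 2.54% to 2.95% in clone 52. That share fell in clones 57, 67, 34 and 42, from 4.52% to 3.78% in clone 57. The log2 fold change over all clones was -0.36 ± 0.09 (SE, 95% interval -0.56 to -0.17, adjusted p = 0.00446 by edgeR's quasi-likelihood test). In bulk RNA fewer cells making a miRNA and less of it per cell cannot be told apart.

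The row mir-10b, from the HOXD cluster, was lower in the same clones. Its levels under control shRNAs were 7645, 8880, 16126 and 15097 CPM in wild-type clones 52, 55, 57 and 67. Under ERH shRNAs they were 6676, 6059, 8554 and 7664 CPM. Clones 57 and 67, again the high ones under control shRNAs, changed by -47.0% and -49.2% and came close to the other wild-type clones. In deletion clones 30, 34, 42 and 43 the levels were 6275, 5152, 9814 and 7252 CPM under control and 5789, 3508, 6746 and 6642 CPM under ERH shRNAs. The change was -31.9% and -31.3% in clones 34 and 42 but -7.75% and -8.42% in clones 30 and 43. On the TMM scale mir-10b was lower in 8 of 8 clones. The log2 fold change over all clones was -0.50 ± 0.11 (SE, 95% interval -0.72 to -0.27, adjusted p = 0.00140 by edgeR). As a share of all miRNA counts mir-10b rose in clones 52, 30 and 43, from 0.635% to 0.748% in clone 52. That share fell in clones 55, 57, 67, 34 and 42, from 1.16% to 0.807% in clone 57. Clones 57, 67 and 34 had the 3 largest percent falls of both miR-10 rows.

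**Figure D1:**
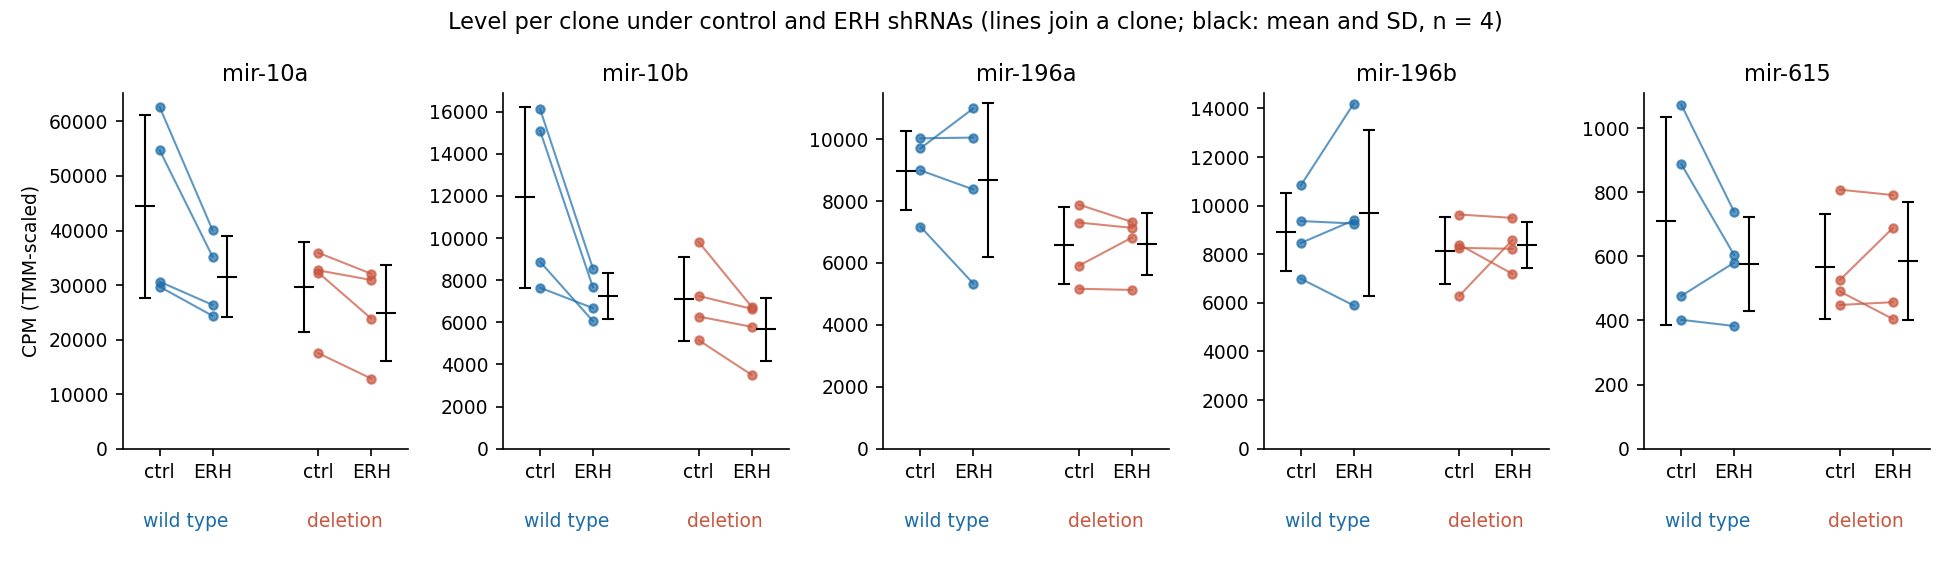
Level of each HOX-embedded row in TMM-scaled CPM (y axes start at 0) under control (ctrl) and ERH shRNAs, with a line for each of 4 wild-type (blue) and 4 deletion clones (red); black marks are the mean and SD of 4 clones. The lines of mir-10a and mir-10b slope down in 8 of 8 clones on this scale, and those of mir-196a, mir-196b and mir-615 slope both ways.

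The row mir-196a stood under control shRNAs at 7172, 10026, 8990 and 9703 CPM in wild-type clones 52, 55, 57 and 67. Under ERH shRNAs it stood at 5334, 10048, 8373 and 10991 CPM. In deletion clones 30, 34, 42 and 43 it stood at 7305, 5914, 5167 and 7881 CPM under control and at 7132, 6820, 5127 and 7324 CPM under ERH shRNAs. It was lower in 5 clones and higher in 3, with the extremes at -25.6% in clone 52 and 15.3% in clone 34. The log2 fold change was -0.04 ± 0.10 (SE, 95% interval -0.24 to 0.16, adjusted p = 0.810 by edgeR).

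The row mir-196b, from the HOXA cluster, stood under control shRNAs at 6995, 8465, 9368 and 10835 CPM in wild-type clones 52, 55, 57 and 67. Under ERH shRNAs it stood at 5892, 9398, 9265 and 14200 CPM. In deletion clones 30, 34, 42 and 43 it stood at 9635, 6300, 8392 and 8264 CPM under control and at 9497, 8585, 7195 and 8224 CPM under ERH shRNAs. The largest upward changes were in clones 34 (36.3%) and 67 (31.1%), which were among the clones with the largest falls of the miR-10 rows. The log2 fold change was 0.06 ± 0.10 (SE, 95% interval -0.15 to 0.27, adjusted p = 0.680 by edgeR), with 5 clones lower and 3 higher.

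The row mir-615, whose hairpin lies in HOXC introns, stood under control shRNAs at 476, 402, 1073 and 888 CPM in wild-type clones 52, 55, 57 and 67. Under ERH shRNAs it stood at 580, 383, 739 and 604 CPM. Clones 57 and 67 were the high ones under control shRNAs, as for the miR-10 rows, and the level changed there by -31.1% and -31.9%. In deletion clones 30, 34, 42 and 43 it stood at 448, 490, 526 and 808 CPM under control and at 457, 405, 688 and 791 CPM under ERH shRNAs. Changes in the other clones ran from -17.4% in clone 34 to 30.8% in clone 42. The log2 fold change was -0.10 ± 0.12 (SE, 95% interval -0.35 to 0.16, adjusted p = 0.563 by edgeR).

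Each ERH shRNA was also set alone against both control shRNAs, which the 2 tests share. The row mir-10a had a log2 fold change of -0.29 with ERH shRNA 1 (adjusted p = 0.0110 by edgeR) and -0.43 with ERH shRNA 2 (adjusted p = 0.00883 by edgeR). For mir-10b these were -0.48 (adjusted p = 0.000577 by edgeR) and -0.51 (adjusted p = 0.00851 by edgeR). No other HOX-embedded row passed with either shRNA. As background, control shRNA 2 against control shRNA 1 gave 0 of 571 rows past the threshold (edgeR, 0.0%), with 48 at an unadjusted p under 0.05 and 1 by DESeq2.

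Scaling moved all rows together. Over the 667 rows tested, the median log2 fold change of the knockdown was 0.06 with TMM, 0.01 with DESeq2's size factors, 0.33 with the total miRNA count and 0.52 with the spike-ins. With spike-in scaling mir-10a was at 0.10 and mir-10b at -0.04, and with the total miRNA count they were at -0.09 and -0.22, none past the threshold. Counted from the median of all rows, mir-10a lay between -0.43 and -0.42 and mir-10b between -0.56 and -0.55 under all 4 scalings. On the same footing mir-196a lay between -0.10 and -0.09, mir-196b between -0.01 and 0.01 and mir-615 between -0.16 and -0.15. A scaling factor shifts all rows of a library alike, so these distances from the median are nearly fixed by construction and are no sign of stability. The sign of the uncentred value depended on the scaling for mir-10a, mir-196a and mir-615, and was the same under all 4 scalings for mir-10b (below 0) and mir-196b (above 0). Under the total miRNA count mir-196a, at 0.24 (adjusted p = 0.0330 by edgeR), and mir-196b, at 0.33 (adjusted p = 0.0116 by edgeR), passed as higher, and mir-196b passed under spike-in scaling too, at 0.52 (adjusted p = 0.0442 by edgeR). Without the clone as a block neither miR-10 row passed, at -0.37 (adjusted p = 0.320 by edgeR) and -0.54 (adjusted p = 0.146 by edgeR).

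**Figure D2:**
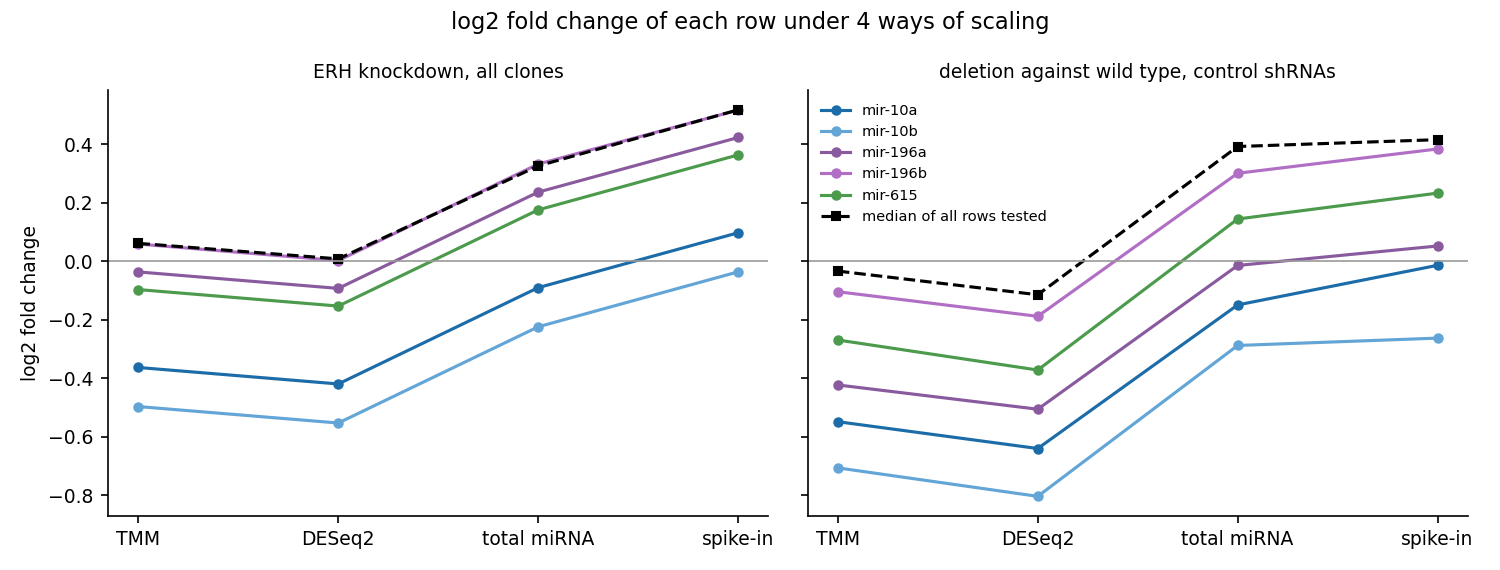
log2 fold change (y axis) of the 5 rows and the median of all rows tested (black, dashed) under 4 scalings (x axis; lines only join values of a row), for the knockdown (left) and for the deletion under control shRNAs (right). In the knockdown the lines move nearly in parallel: mir-10a goes from -0.36 with TMM to 0.10 with the spike-ins and lies between -0.43 and -0.42 from the median. In the deletion they are less parallel, with mir-10a between -0.54 and -0.43 from the median and mir-10b between -0.69 and -0.67.

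All rows were also counted by whether another hairpin lies near. The 541 tested rows with no expressed neighbour within 10 kb, to which the 5 HOX-embedded rows belong, had a median log2 fold change of 0.19 under knockdown, with 130 called higher and 53 lower. The 112 rows with a neighbour had a median of -0.31, with 1 called higher and 56 lower. The miR-10 rows are thus among the 53 rows called lower of those without a neighbour, and the values of mir-196a, mir-196b and mir-615 also lay below the median of that class. The reported relation of ERH to neighbouring hairpins was not tested on these 5 rows.

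**Figure D3:**
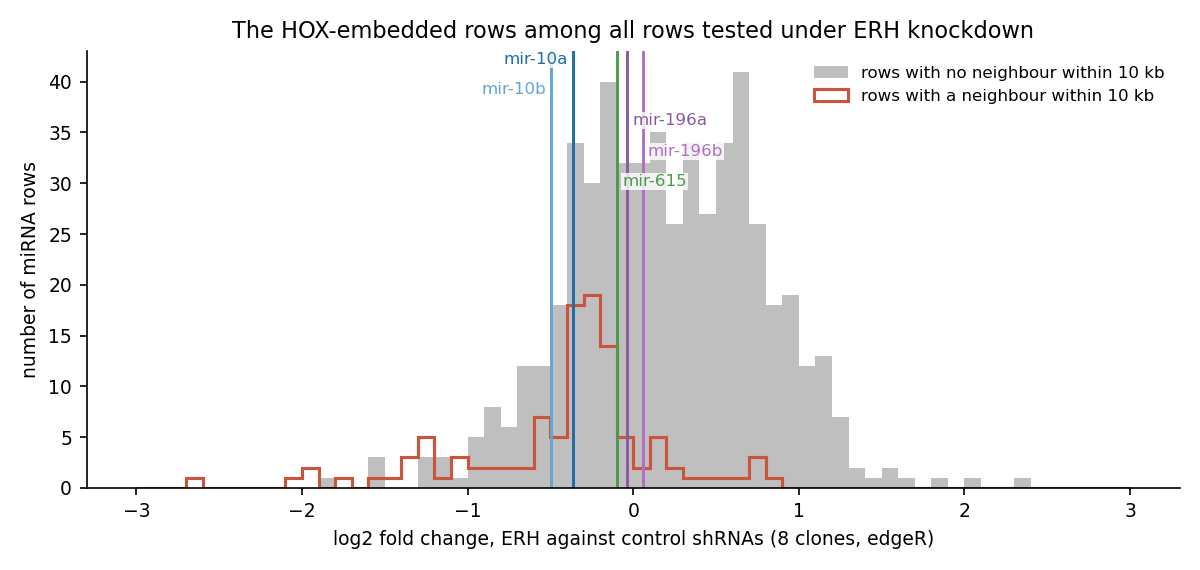
Number of rows (y axis) by log2 fold change under ERH knockdown (x axis, TMM-scaled, 8 clones) for rows without an expressed neighbouring hairpin within 10 kb (grey) and with one (red outline), with vertical lines at the HOX-embedded rows. On this scale mir-10a and mir-10b lie at -0.36 and -0.50, and the median of rows without a neighbour is 0.19.

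Relatives by sequence outside the HOX clusters were read beside the members, on the TMM scale only. Of all 667 rows tested under knockdown, 16.5% were called lower and 20.1% higher on that scale. The median of all rows was 0.06 there and 0.52 with spike-in scaling. Of the miR-10 relatives mir-99a, mir-99b and mir-100, 1 of 3 was called lower and 0 higher under knockdown, with a median of -0.26. The called row was mir-99a at -0.58 (adjusted p = 0.00134 by edgeR), and mir-99b stood at -0.26 and mir-100 at -0.26. The row mir-100 had at most 51 counts in a library. Of the 9 let-7 rows, 5 were called lower and 0 higher, with a median of -0.33 and values from -0.73 for mir-98 to -0.09 for let-7e. Most of these relatives have an expressed neighbour within 10 kb, such as let-7c at 659 bases from mir-99a and let-7e at 105 bases from mir-99b. The exceptions are let-7g and let-7i, which like the HOX-embedded rows have none, and both were called lower, at -0.46 (adjusted p = 0.00322 by edgeR) and -0.39 (adjusted p = 0.0109 by edgeR). The miR-196 rows, which share seed bases with let-7, stood at -0.04 and 0.06.

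Within wild-type clones 1 of the 5 rows was called lower and 0 higher, where 31.3% of 613 rows were called, 10.4% lower and 20.9% higher. It was mir-10b at -0.61 ± 0.16 (SE, adjusted p = 0.00891 by edgeR). The call was lost with spike-in scaling, at 0.00093 (adjusted p = 0.9997 by edgeR), with the total miRNA count, at -0.27 (adjusted p = 0.255 by edgeR), and without the clone as a block, at -0.62 (adjusted p = 0.0852 by edgeR). It was also lost without clone 57, at -0.54 (adjusted p = 0.0792 by edgeR), without clone 67, at -0.50 (adjusted p = 0.0640 by edgeR), and with ERH shRNA 2 alone, at -0.63 (adjusted p = 0.0573 by edgeR). The row mir-10a stood at -0.40 ± 0.15 (SE, adjusted p = 0.0538 by edgeR), and it passed without clone 52, at -0.41 (adjusted p = 0.0336 by edgeR). It passed too with DESeq2, at -0.53 (adjusted p = 0.0100), with a mean of at least 100 counts, at -0.34 (adjusted p = 0.0486 by edgeR), with each library as its own sample, at -0.41 (adjusted p = 0.00269 by edgeR), and with ERH shRNA 1 alone, at -0.35 (adjusted p = 0.0369 by edgeR). With spike-in scaling mir-10a was at 0.22 and with the total miRNA count at -0.06. Values for mir-196a, mir-196b and mir-615 were -0.04, 0.12 and -0.17.

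Within deletion clones 0 of the 5 rows were called, where 10.3% of 633 rows were called (6.0% lower and 4.27% higher), and 2 of the 5 had an unadjusted p under 0.05. These were again the miR-10 rows, mir-10a at -0.31 ± 0.10 (SE, adjusted p = 0.0677 by edgeR) and mir-10b at -0.36 ± 0.11 (SE, adjusted p = 0.0545 by edgeR). Both passed with DESeq2, at -0.32 (adjusted p = 0.0330) and -0.38 (adjusted p = 0.0177). Counting DESeq2, mir-10a gained a call in 2 alternative settings and mir-10b in 3. Neither passed when a clone was left out. With spike-in scaling mir-10a was at -0.02 and mir-10b at -0.07, and with the total miRNA count they were at -0.12 and -0.18. Values for mir-196a, mir-196b and mir-615 were -0.01, 0.02 and -0.0008.

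Whether the response differed between genotypes was tested by the interaction. On the TMM scale the knockdown effect on mir-10b was less negative in the deletion clones by 0.33 ± 0.20 (SE, 95% interval -0.09 to 0.74, adjusted p = 0.395 by edgeR), and that on mir-10a by 0.16 ± 0.16 (SE, 95% interval -0.18 to 0.51, adjusted p = 0.646 by edgeR). The values were 0.10 for mir-196a, -0.02 for mir-196b and 0.25 for mir-615. With spike-in scaling the interaction was -0.07 for mir-10b and -0.24 for mir-10a, at a median of all rows of -0.41. With the total miRNA count it was 0.10 and -0.06, at a median of -0.22. The sign for both miR-10 rows thus depended on the scaling. None of the 5 passed, and neither did any of the 667 rows (0.0% by edgeR), of which 127 had an unadjusted p under 0.05 and 16 passed by DESeq2. The call for mir-10b in wild-type clones alone is therefore not a shown difference between genotypes.

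Control shRNAs, which leave ERH untargeted, gave the comparison of the deletion itself. The log2 fold changes of all 5 rows were below 0 on the TMM scale, as were those of 275 of the 536 rows tested. Of the 5 rows 0 passed the threshold, where 25.9% of the 536 rows were called, 7.09% lower and 18.8% higher. Deletion clones had mir-10b at 7123 ± 1989 CPM and wild-type clones at 11937 ± 4293 CPM (SD, n = 4 each). The log2 fold change was -0.71 ± 0.26 (SE, 95% interval -1.27 to -0.15, adjusted p = 0.0587 by edgeR). For mir-10a the levels were 29604 ± 8224 and 44417 ± 16786 CPM (SD, n = 4), with -0.55 ± 0.27 (SE) between them (adjusted p = 0.139 by edgeR). For mir-196a they were 6567 ± 1246 and 8973 ± 1276 CPM (SD, n = 4), with -0.42 ± 0.19 (SE) between them (adjusted p = 0.113 by edgeR). The values of mir-196b and mir-615 were -0.10 and -0.27. The genotypes overlapped for every one of the 5 rows, where 10.3% of rows had all deletion clones below all wild-type clones and 19.0% had all above. For the miR-10 rows the overlap came from wild-type clones 52 and 55, which lay within the range of the deletion clones, while 57 and 67 lay above it.

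Those values also moved with the processing. The row mir-10b passed without clone 52 (-0.90, adjusted p = 0.0376 by edgeR), without clone 55 (-0.89, adjusted p = 0.0430 by edgeR) or without clone 42 (-0.90, adjusted p = 0.0423 by edgeR), and with control shRNA 1 alone, at -1.01 (adjusted p = 0.0207 by edgeR), but stood at -0.51 (adjusted p = 0.206 by edgeR) with control shRNA 2 alone. It passed as well with DESeq2, at -0.80 (adjusted p = 0.0424), and with no filter, at -0.70 (adjusted p = 0.0394 by edgeR). With each library as its own sample, which counts a clone more than once, mir-10b, mir-10a and mir-196a passed, at -0.74, -0.58 and -0.43 (adjusted p = 0.00701, 0.0285 and 0.0135 by edgeR). With spike-in scaling mir-10b was at -0.26 and mir-10a at -0.01, and with the total miRNA count they were at -0.29 and -0.15, none past the threshold. With spike-in scaling, mir-196a, mir-196b and mir-615 were above 0, at 0.05, 0.38 and 0.23, at a median of all rows of 0.42. Counted from the median of all rows, mir-10b lay between -0.69 and -0.67 and mir-10a between -0.54 and -0.43 under the 4 scalings.

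Under ERH shRNAs the 2 genotypes were compared in the same way. Deletion clones had mir-10b at 5671 ± 1504 CPM and wild-type clones at 7238 ± 1098 CPM (SD, n = 4 each), with -0.37 ± 0.22 (SE) between them on the log2 scale (adjusted p = 0.463 by edgeR). That of mir-10a was 24932 ± 8833 and 31502 ± 7404 CPM (SD, n = 4), with -0.35 ± 0.27 (SE) between them (adjusted p = 0.546 by edgeR). For mir-196a the levels were 6601 ± 1004 and 8687 ± 2484 CPM (SD, n = 4), at -0.41 ± 0.24 (SE, adjusted p = 0.440 by edgeR). The rows mir-196b and mir-615 stood at -0.23 and 0.01. None of the 5 passed and the genotypes overlapped for all of them, where 1.93% of rows had all deletion clones below all wild-type clones and 8.79% had all above. By edgeR 0 of 569 rows passed (0.0%), with 87 at an unadjusted p under 0.05 and 8 by DESeq2.

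**Figure D4:**
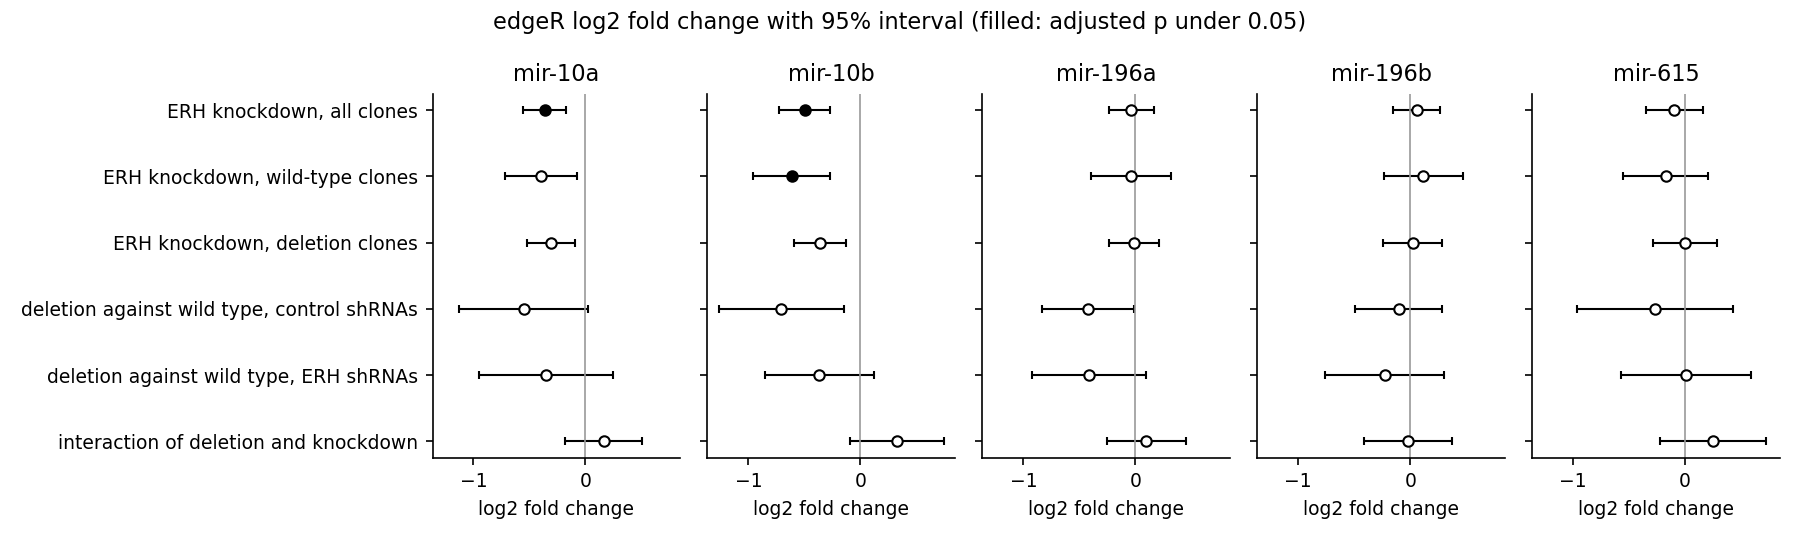
edgeR log2 fold change with its 95% interval (x axis, TMM-scaled; filled points have an adjusted p under 0.05) for each HOX-embedded row in 6 comparisons (y axis). Filled points are seen for mir-10a and mir-10b in the knockdown over all clones and for mir-10b in wild-type clones; with spike-in scaling mir-10a has the opposite sign in the knockdown over all clones and neither miR-10 row passes.

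Ratios of 2 rows of one sample need no scaling. Here they were taken on counts summed over the 2 libraries of an arm, so the deeper library weighed more. Within the miR-10 family the control libraries gave a log2 ratio of mir-10a to mir-10b of 1.89 ± 0.12 in the wild-type and 2.04 ± 0.38 in the deletion clones (SD, n = 4 each), that is about 3.71 and 4.12 counts of mir-10a for each count of mir-10b. Clone 30 had the highest ratio, at 2.52 under control and 2.47 under ERH shRNAs. Knockdown moved the ratio by 0.13 ± 0.14 (SD, n = 8) and upward in 6 of 8 clones, with p = 0.0391 in the exact permutation test by sign flips (two-sided; adjusted p = 0.229 over 8 tests of both ratios). The shift was 0.21 ± 0.16 in wild-type and 0.05 ± 0.07 in deletion clones (SD, n = 4 each), and the shifts differed by -0.16 (exact permutation p = 0.114). The deletion differed from wild type by 0.15 under control (exact permutation p = 0.514) and by -0.01 under ERH shRNAs (exact permutation p = 0.971).

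Within the miR-196 family the log2 ratio of mir-196a to mir-196b was 0.02 ± 0.17 in wild-type and -0.31 ± 0.30 in deletion clones (SD, n = 4 each) under control shRNAs. The genotypes differed by -0.33 (exact permutation p = 0.114; adjusted p = 0.229). Clones 30 and 42 were the lowest, at -0.40 and -0.70, and clones 34 and 43 lay within the range of the wild-type clones. Under ERH shRNAs the values were -0.14 ± 0.19 and -0.35 ± 0.14 (SD, n = 4), a difference of -0.21 (exact permutation p = 0.143). Knockdown moved the ratio by -0.10 ± 0.14 (SD, n = 8), and downward in 7 of 8 clones (p = 0.109, exact permutation by sign flips). The move was -0.16 ± 0.05 in wild-type and -0.04 ± 0.19 in deletion clones (SD, n = 4), and these differed by 0.12 (exact permutation p = 0.314). None of the 8 tests passed after adjustment, and the smallest p-values possible are 0.00781 for sign flips of 8 clones and 0.0286 for 70 arrangements of the genotypes.

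Other ratios were chosen after the values had been seen and are given without a test. The log2 ratio of the miR-10 pair to the miR-196 pair moved under knockdown by -0.40 ± 0.39 (SD, n = 8) and was lower in 7 of 8 clones. The changes were -0.42, -0.64 and -0.998 in wild-type clones 55, 57 and 67, while it was 0.12 in clone 52. In deletion clones 30, 34, 42 and 43 they were -0.13, -0.80, -0.32 and -0.03. The family difference thus varied from near 0 to a log2 unit between clones. The log2 ratio of mir-10a to mir-196a moved by -0.33 ± 0.35 (SD, n = 8) and was lower in 6 of 8 clones. MIR10A and MIR196A1 lie in the same HOXB cluster, but the mir-196a row does not separate MIR196A1 from MIR196A2. The log2 ratio of mir-615 to mir-10a was higher in 8 of 8 clones, by 0.27 ± 0.26 (SD, n = 8), with the largest change in clone 42 (0.82) and the smallest in clone 43 (0.05). The log2 ratio of mir-615 to mir-196a was lower in 4 clones and higher in 4.

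**Figure D5:**
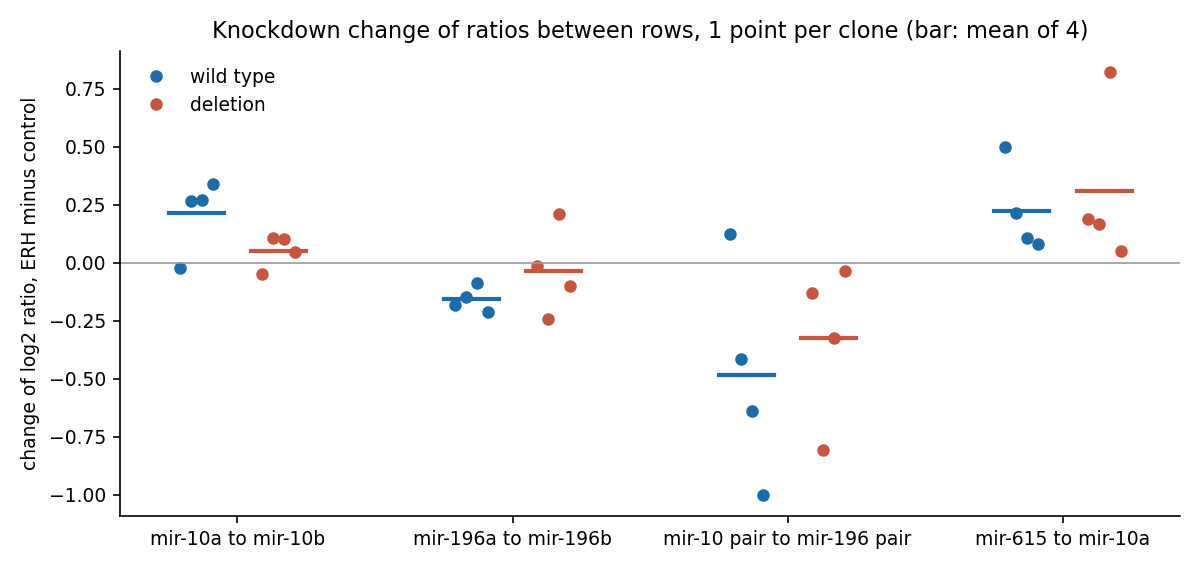
Change of 4 log2 ratios between rows under knockdown (y axis, ERH minus control shRNAs), 1 point per wild-type (blue) or deletion clone (red), with bars at the mean of 4 clones. The ratio of the miR-10 pair to the miR-196 pair has 7 of 8 clones below 0 and the widest spread, and that of mir-615 to mir-10a has 8 of 8 above 0.

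Across the 16 sums of clone and arm, each row was compared with all others. Among 366 rows with a mean of at least 10 CPM, the row most like mir-10a by Pearson's r of log2 CPM was mir-10b (r = 0.90), followed by mir-191 (0.84) and mir-26a (0.82). For mir-10b these were mir-181a (0.91), mir-10a (0.90) and mir-26a (0.87). For mir-196a they were mir-26b (0.91), mir-455 (0.79) and mir-187 (0.75), with mir-196b at rank 4 (0.74). For mir-196b they were mir-151a (0.78), mir-196a (0.74) and mir-190a (0.67), and for mir-615 mir-744 (0.67), mir-25 (0.67) and mir-10b (0.66). Between the families r was lower, at 0.45 for mir-10a with mir-196a and 0.30 for mir-10b with mir-196b. The row mir-615 was nearer to the miR-10 rows (0.66 with each) than to mir-196a (0.10). Of the loci of mir-196a, MIR196A2 shares the HOXC cluster with MIR615 and MIR196A1 lies in HOXB. The 16 sums come from 8 clones and share libraries and scaling, so these values describe the sums and carry no test.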

How the data were processed

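Small RNA libraries were made with the QIAseq miRNA kit from 100 ng of total RNA, of which 400 ng had been mixed with 4 spike-in RNAs, per the labels' protocols. The authors deposited raw read counts per miRNA precursor and spike-in, per the file headers. SAMtools is named in the submitters' processing notes; the aligner, annotation, build and any use of molecular identifiers are not given in the sources used here, and amplification copies may be among the counts. From its precursor name, a row was taken to hold both arms of a hairpin and all loci of that name, which was not checked. Every column was mapped to a sample and no row lacked a name.

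For each clone the 2 libraries with control and the 2 with ERH shRNAs were added up (16 sums; the clone is the replicate) and the sums tested over all rows with edgeR 4.0.16 in R 4.3.3 (filterByExpr, TMM over miRNA rows, quasi-likelihood test, Benjamini-Hochberg, threshold 0.05), with the clone as a block for the knockdown and interaction. The labels pair the arms, since each clone received all 4 vectors; control and ERH deviations from the group means correlated at r of 0.42 to 0.86 in the 8 clones over 314 rows. The log2 CPM had a prior count of 2, and 0.5 was added to sums for ratios. Of the fits, only that of the knockdown over all clones was tested on simulated data. Folding used ViennaRNA 2.7.2. Alternatives were DESeq2 1.42.0, spike-in and total miRNA scaling, other filters, single libraries or shRNAs, no block, and each clone left out. All 5 rows were named in each comparison whatever their values; rows of like pattern were the 3 with the highest r. The members and lists were chosen with earlier results of these data known.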

Additional observations from a re-analysis of the deposited data

Results flagged for a closer look

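Each group of 4 clones was checked for a clone far from the other 3, by Dixon's ratio of its gap to the group's range. The values checked, on the log2 scale, were the levels of the HOX-embedded rows, their knockdown changes and the knockdown changes of their ratios. Of 42 groups, 1 passed the critical value of 0.829: the level of mir-10a in deletion clones under control shRNAs, where clone 34, at 17512 CPM, had a ratio of 0.852, with the other 3 clones between 32287 and 35920 CPM. On the CPM scale the ratio was 0.803, below that critical value. Chance passes about 1 in 20 groups. The log2 fold change of mir-10a between deletion and wild-type clones under control shRNAs was -0.55 (adjusted p = 0.139 by edgeR) with clone 34 and -0.37 (adjusted p = 0.303 by edgeR) without it.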

How the results depend on the processing

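The mir-10a and mir-10b calls of the knockdown over all clones held with DESeq2, both filters, single libraries, either ERH shRNA and each clone left out, and both were lost under spike-in scaling, total miRNA scaling and without the block. The cause was not tested. Of 450 member values recomputed, 345 kept sign and side of the threshold, 10 lost a call, 22 gained one and 73 changed sign, in 70 of which neither value passed. Depth limits the other HOX rows, with 0 and 5 counts, more than the 5 HOX-embedded rows, of which mir-615 had the fewest counts (538 to 3920 per library).

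With spike-in scaling the knockdown values were 0.098 for mir-10a, 0.42 for mir-196a and 0.36 for mir-615 over all clones. They were 0.22 for mir-10a, 0.00093 for mir-10b, 0.58 for mir-196a and 0.44 for mir-615 in wild-type clones, and 0.28 for mir-196a and 0.29 for mir-615 in deletion clones, where 102 rows passed. For the deletion under control shRNAs mir-196a, mir-196b and mir-615 were at 0.052, 0.38 and 0.23. The interaction was -0.24, -0.074, -0.30 and -0.16 for mir-10a, mir-10b, mir-196a and mir-615. With total miRNA scaling mir-196a and mir-615 were at 0.24 and 0.18 over all, 0.30 and 0.17 in wild-type and 0.17 and 0.19 in deletion clones, where 109 rows passed. The deletion then gave 0.30 for mir-196b and 0.14 for mir-615 under control shRNAs and 0.020 for mir-196b under ERH shRNAs, and the interaction -0.064 for mir-10a and -0.13 for mir-196a, with 29 rows passing.

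DESeq2 gave -0.019 for mir-196b under knockdown in wild-type clones, -0.078 for mir-615 under the deletion with ERH shRNAs and 0.027 for the mir-196b interaction. It called 8 rows for that deletion comparison, 16 for the interaction and 1 between the control shRNAs. With no filter mir-196a stood at 0.027 over all and 0.048 in wild-type clones and at -0.042 in the interaction, with 19 rows passing there and 1 for the deletion under ERH shRNAs. With a mean of at least 100 counts, and so fewer rows tested, 148, 124, 76, 29 and 1 rows passed for the knockdown over all and in wild-type clones, the deletion under control shRNAs, the interaction and the control shRNAs. Values of mir-196a were then 0.091, 0.017 and 0.035 for the knockdown over all, in wild-type and in deletion clones and -0.055 for the interaction. Those of mir-615 were 0.030 over all and 0.048 in deletion clones, and mir-196b was at 0.050 for the deletion under control shRNAs.

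Without the replicate block 37, 94 and 13 rows passed for the knockdown over all, in wild-type and in deletion clones, mir-196a was at 0.045 in wild-type and mir-615 at 0.0029 in deletion clones. With each library as its own sample mir-196a was at 0.033, 0.0035 and 0.011 over all, in wild-type and in deletion clones, mir-615 at 0.026 in deletion clones and at -0.025 for the deletion under ERH shRNAs. The counts were then 104 for the knockdown in deletion clones, 223 and 55 for the deletion under control and ERH shRNAs and 52 for the interaction. ERH shRNA 1 alone gave 0.056 for mir-615 in deletion clones. ERH shRNA 2 alone gave 0.00016 for mir-196a over all and 0.0058 in wild-type clones, -0.078 for mir-196b in deletion clones, -0.12 for mir-615 under the deletion with ERH shRNAs, and 121 and 33 rows for the knockdown in wild-type and deletion clones. Control shRNA 2 alone gave 35 rows for the deletion. The mir-196a to mir-196b difference in knockdown effect was -0.025 with the first shRNA of each arm, and the mir-10a to mir-10b difference under ERH shRNAs 0.021 with the second.

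With each clone left out in turn, the rows passing ran from 159 (without clone 55) to 230 for the knockdown over all clones, 112 to 197 in wild-type clones, 30 to 119 in deletion clones, 83 to 129 and 0 to 1 for the deletion under control and ERH shRNAs, and 0 to 35 for the interaction. The mir-10a to mir-10b difference between genotypes ran from -0.0043 to 0.26 under control and from -0.13 to 0.084 under ERH shRNAs. For the knockdown mir-196a ran from -0.090 to 0.020 over all, -0.12 to 0.14 in wild-type and -0.093 to 0.032 in deletion clones. The row mir-196b ran from -0.011 to 0.12 over all and -0.13 to 0.093 in deletion clones, and mir-615 from -0.14 to 0.085 in deletion clones. For the deletion under control shRNAs mir-196b ran from -0.23 to 0.050 and mir-615 from -0.55 to 0.056, and under ERH shRNAs from -0.36 to 0.031 and from -0.25 to 0.18. The interaction ran from -0.030 to 0.14 for mir-196a and from -0.22 to 0.051 for mir-196b.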
